A study of Mus musculus with 9 samples.

Results

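Interferon-stimulated genes are the antiviral and immune-regulatory genes that cells transcribe after interferon binds its receptor, and 37 of them were followed across T cells (T), dendritic cells (DC) and a sorted population that the submitters call TDC. The 37 genes are textbook members of the response, taken by name, and the list was drawn up with earlier results of these data known. All 37 were rows of the 50508-gene count table, and all 37 passed the filter on low counts that left 14708 genes for testing. In the TDC libraries 19 of the 37 (51.4%, against 21.8% of all genes tested) were higher than in T, among them Rsad2, Gbp3, Ifih1 and Oas1a, and 8 (21.6%, against 9.55%) were higher than in DC. The 19 became 11 when libraries were scaled by size alone, and the 8 became 5 without TDC replicate 3. Zbp1 and Isg20 were called lower in TDC than in both of the other populations (5.41%, against 1.69% of all genes). That count of 2 fell to 0 or 1 without any single library. Calls over all genes between TDC and DC also fell without any single library. Of the 37, 13 passed the test in no comparison, and the matching share of all genes was not counted.

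Libraries were made from 3 splenic populations sorted from untreated mice aged 8 weeks, and every mouse was homozygous for the Zbtb46-GFP fluorescent reporter of the DC lineage. T and DC, both described as conventional, served as controls for TDC, and each population has 3 libraries. Each library is a pool of spleens, from 5 mice for replicate 1 and 6 mice for replicates 2 and 3, so n = 3 counts pools and not single mice. All groups carry the reporter on both alleles and none received a treatment, so the values below are resting levels and no group was exposed to interferon by design. Libraries were prepared with a stranded QuantSeq kit, which reads the ends of transcripts, and total depth was 10986544 to 18071425 reads in T, 14973484 to 25676640 in DC and 14594850 to 22677130 in TDC.

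In the textbook pathway, type I interferon binds the receptor pair Ifnar1 and Ifnar2, whose kinases activate STAT proteins. With IRF9 these form a complex that binds the interferon-stimulated response element (ISRE) in target promoters. Interferon gamma acts through its own receptor and the gamma-activated site (GAS), and many guanylate-binding proteins respond to it. Among splenic cells, plasmacytoid DC are known for strong type I interferon production, and Irf7 is the factor that amplifies it.

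The promoters show what these genes share in sequence. RefSeq promoter windows of 300 bases (250 before to 50 after the start, build GRCm38.p6) were found for 28 of the 37 genes. The ISRE core, searched on both strands as GAAA, any NN pair and GAAA again, was present in 17 of these 28 (60.7%), against 3.99% of the 27025 genes in the promoter table. The GAS pattern TTCNNNGAA, which reads the same on both strands and can overlap the ISRE core, was found in 8 of 28 (28.6%), against 9.55% of all genes. A match describes the letters in the window and is not a measurement of binding. Of the 8 genes higher in TDC than in DC, all with a window, 5 held the core and 3 did not (Irf7, Ifi44 and Cmpk2). The 3 guanylate-binding protein genes lower in DC than in T all held it, as did all 6 genes with a window that were higher in DC. Of the genes not called between DC and T, 8 of 19 with a window held it. Of the genes not called between TDC and DC, 12 of 19 with a window held the core. Between TDC and T, 10 of the 14 higher genes with a window held it, as did 7 of the 13 not called. Isg20, lower in TDC than in T, did not hold it. The stretches below, 150 to 26 bases before the start and read 5′ to 3′ on the gene's strand, are those of the 5 genes with the core that were higher in TDC than in DC, and of Isg15, whose promoter holds 3 overlapping matches although its own level passed no test. Capitals mark the ISRE core on either strand. Gbp7 lies at chr3:142530186-142530310 (+), Gbp3 at chr3:142559894-142560018 (+), Gbp2 at chr3:142620513-142620637 (+), Rsad2 at chr12:26456478-26456602 (-), Bst2 at chr8:71537498-71537622 (-) and Isg15 at chr4:156200844-156200968 (-).
Gbp7: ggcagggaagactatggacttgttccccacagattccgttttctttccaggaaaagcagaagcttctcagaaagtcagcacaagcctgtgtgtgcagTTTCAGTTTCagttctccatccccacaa
Gbp3: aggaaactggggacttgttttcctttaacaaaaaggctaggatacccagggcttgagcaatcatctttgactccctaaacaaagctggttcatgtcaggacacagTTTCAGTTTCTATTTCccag
Gbp2: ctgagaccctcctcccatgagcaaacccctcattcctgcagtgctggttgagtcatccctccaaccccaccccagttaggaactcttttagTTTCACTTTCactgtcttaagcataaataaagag
Rsad2: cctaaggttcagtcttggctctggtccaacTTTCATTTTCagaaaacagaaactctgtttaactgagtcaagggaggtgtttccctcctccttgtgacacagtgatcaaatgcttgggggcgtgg
Bst2: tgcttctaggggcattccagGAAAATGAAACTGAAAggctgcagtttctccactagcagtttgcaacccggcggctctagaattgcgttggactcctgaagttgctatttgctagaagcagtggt
Isg15: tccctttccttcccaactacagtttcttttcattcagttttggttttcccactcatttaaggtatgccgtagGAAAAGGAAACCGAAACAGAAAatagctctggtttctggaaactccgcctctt

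The labelled populations were checked against their defining markers. Cd3e, a subunit of the T cell receptor complex, was 394, 325 and 342 CPM (counts of a gene as a share of the library, TMM-normalised) in T, had no reads in DC, and was 11.4, 4.96 and 10.7 CPM in TDC. Zbtb46 was 1.62, 1.19 and 1.03 CPM in T, 46.4, 114 and 40.7 in DC, and 7.54, 5.97 and 10.4 in TDC. T and DC therefore carried their own markers, while TDC held both genes at lower levels. A list of 10 conventional DC markers summed to 954 to 1520 CPM in T, 45575 to 74136 in DC and 13574 to 18389 in TDC. Cd74 and H2-Ab1 made up most of the sums in DC (means 30348 and 26289 CPM) and TDC (8173 and 3404). Ccr7 made up most of those in T (mean 1194 CPM). Flt3 had a mean of 568 CPM in DC and 37.6 in TDC. Of the 10 markers, 6 were lower in TDC than in DC (60%, against 4.6% of all genes). Higher was 1 (10%, against 9.55%), Sirpa, with a mean of 449 CPM in DC and 3369 in TDC. A list of 8 T cell markers summed to 5657 to 8698 CPM in T and 66.6 to 206 CPM in TDC, and all 8 were lower in TDC. A list of 11 red pulp macrophage markers summed to 2.39 to 7.61 CPM in T, 188 to 312 in DC and 52267 to 82565 in TDC, and all 11 (Vcam1 and the C1q genes among them) were higher in TDC than in both controls. Erythroid markers summed to 700 to 2220 CPM in TDC and at most 22.4 CPM elsewhere, and monocyte markers to 6926 to 14225 CPM in TDC against 1501 to 3005 in DC. Csf1r and Treml4 made up most of the monocyte sums in TDC (means 7415 and 2031 CPM), and Nr4a1 most of those in DC (1898). Of 9 monocyte markers tested, 3 (Csf1r and Treml4 among them) were higher in TDC than in DC (33.3%, against 9.55% of all genes). Nr4a1 was the 1 lower (11.1%, against 4.6%). The TDC label and these marker levels move together in every comparison below, and their part in the results on interferon-stimulated genes was not tested. Plasmacytoid DC markers did not follow that pattern: the list summed to 678 to 1252 CPM in DC and 697 to 1048 in TDC. Irf8 made up most of these sums, with a mean of 789 CPM in DC and 782 in TDC. Of 11 tested, 0 were higher in TDC than in DC by edgeR (1 at an unadjusted p under 0.05, and 1 by DESeq2). Runx2 was lower (1 of 11, 9.09%, against 4.6% of all genes, edgeR adjusted p = 0.0252). The median log2 fold change of the 11 in TDC against DC was -1.68. In bulk libraries, fewer cells of a type and less RNA per cell cannot be told apart.

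**Figure D1:**
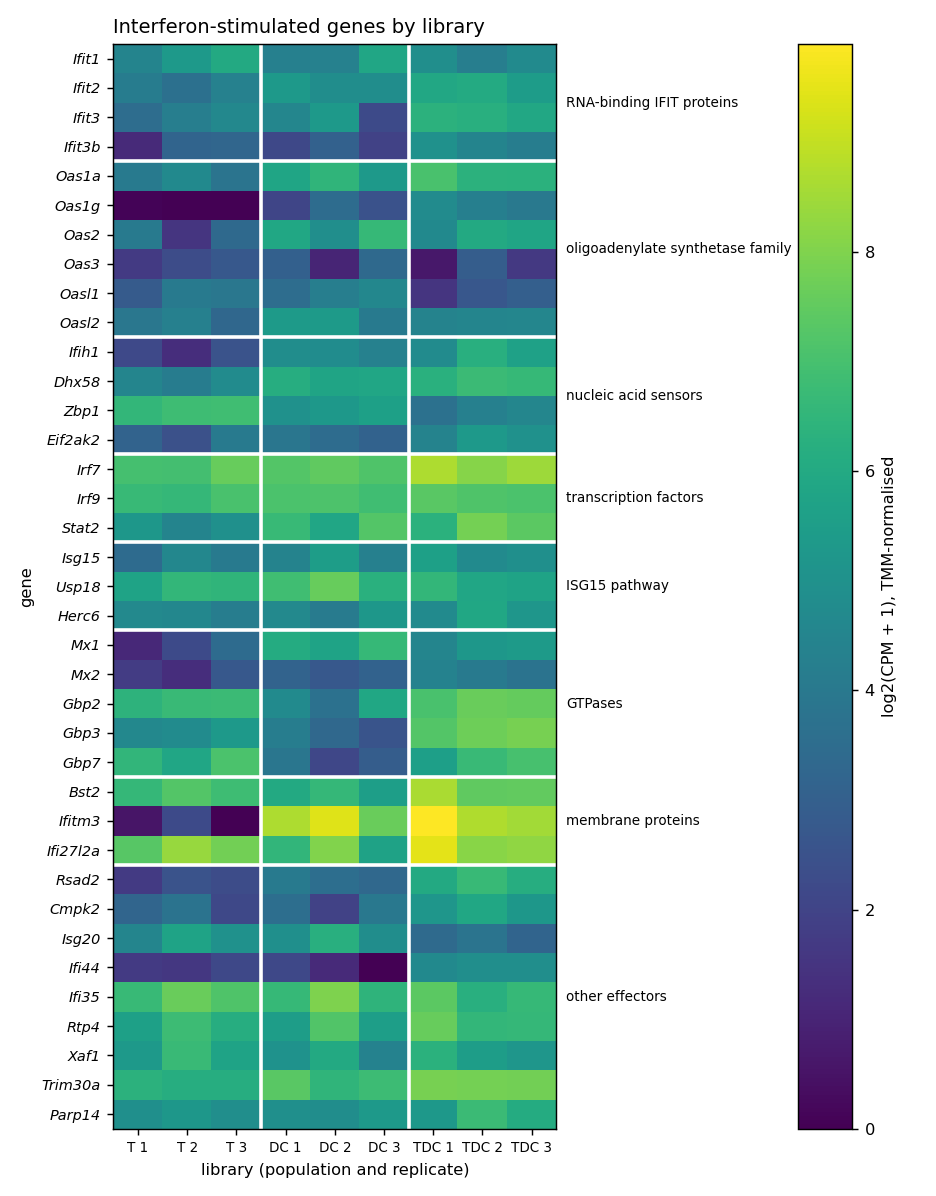
Level of each of the 37 genes (rows, grouped by role) in each of the 9 libraries (columns), as log2 of TMM-normalised CPM plus 1. Oas1g and Ifitm3 are near 0 in the 3 T libraries, while Zbp1 and Isg20 are darkest in the 3 TDC libraries.

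The 37 genes took a larger share of the reads in TDC. As a plain percent of all reads in a library they made up 0.178% to 0.239% in T, 0.199% to 0.246% in DC and 0.285% to 0.337% in TDC, without overlap between TDC and the others. After TMM scaling, which set factors above 1 in the T libraries and below 1 in the TDC libraries, the summed level was 1372 to 1922 CPM in T, 1776 to 2826 CPM in DC and 3424 to 4638 CPM in TDC, a wider gap than in the plain shares. By mean level, TDC was the highest of the 3 populations for 25 of the 37 genes (67.6%), against 35.8% of all genes tested. DC was highest for 7 (18.9%, against 29.1%) and T for 5 (13.5%, against 35.1%). Differences were tested with edgeR's quasi-likelihood test, and a gene was called at a Benjamini-Hochberg adjusted p under 0.05 over all 14708 genes.

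Against T, 19 of the 37 were higher in TDC (51.4%), where 21.8% of all genes were called higher. Only 2 were lower (5.41%), where 11.2% of all genes were. The median log2 fold change of the 37 was 1.22, against 0.14 over all genes. Scaled by library size alone, the median of all genes moved to -0.47 and that of the 37 to 0.60, and the counts became 11 higher and 3 lower. The 8 calls that ended were those of Ifit3, Mx2, Oas2, Irf7, Ifi44, Cmpk2, Parp14 and Eif2ak2 (adjusted p 0.0520 to 0.298). Among all called genes, the share called higher then fell from 66.0% to 42.9%. In DC against T, 9 of the 37 were higher (24.3%, against 15.4% of all genes) and 4 lower (10.8%, against 8.41%). The median there was 0.33, against 0.08 over all genes. Under library-size scaling that split became 8 and 5, and the share of all calls that were higher moved from 64.7% to 50.2%.

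Between TDC and DC, 8 of the 37 were higher in TDC (21.6%, against 9.55% of all genes) and 2 were lower (5.41%, against 4.6%). The median log2 fold change was 0.69, against 0.01 over all genes. The count of 8 fell to 5 without TDC replicate 3, and the count of 2 was 0 or 1 without any 1 of the 9 libraries. Over all genes, the fits without 1 library gave 897 to 1365 higher and 293 to 611 lower, against 1404 and 677 with all 9. Library-size scaling gave 6 higher and 3 lower, with 53.1% of all calls higher in place of 67.5%. Called or not, 17 members lay wholly above DC (45.9%, against 20.1% of all genes) and 4 wholly below it (Isg20, Mx1, Oasl1 and Zbp1, 10.8%, against 14.8%). Of these, 11 were not called, Mx1 and Oasl1 among them. With 3 libraries a side, separated ranges did not always pass the test.

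**Figure D2:**
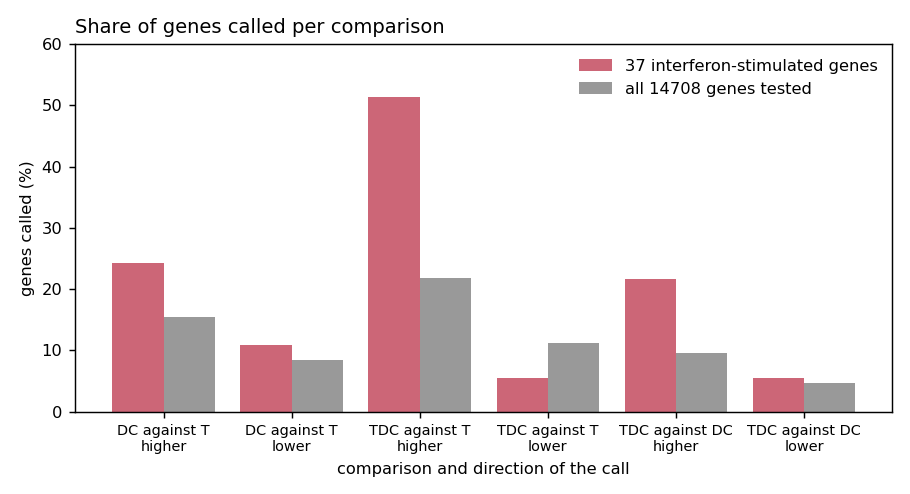
Percent of genes called higher or lower in each of the 3 comparisons, for the 37 interferon-stimulated genes and for all 14708 genes tested. The widest gap is for genes higher in TDC than in T, 51.4% against 21.8%.

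The 2 comparisons with TDC share the TDC libraries, so calls in both are given as a description. Higher in TDC in both were Rsad2, Gbp3, Irf7, Ifi44 and Cmpk2 (5 genes, 13.5%, against 7.06% of all genes), and lower in both were Zbp1 and Isg20 (5.41%, against 1.69%). The count of 5 was 3 without T replicate 1, T replicate 2, T replicate 3, TDC replicate 1 or TDC replicate 2, and 2 without TDC replicate 3. The count of 2 fell to 1 or 0 without any single library. For 15 of the 37 (40.5%, against 14.2% of all genes) all 3 TDC libraries lay above all 6 others, and for Zbp1 and Isg20 they lay below (5.41%, against 5.58%). Against T alone, TDC lay wholly above T for 26 of the 37 (70.3%, against 29.6% of all genes).

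**Figure D3:**
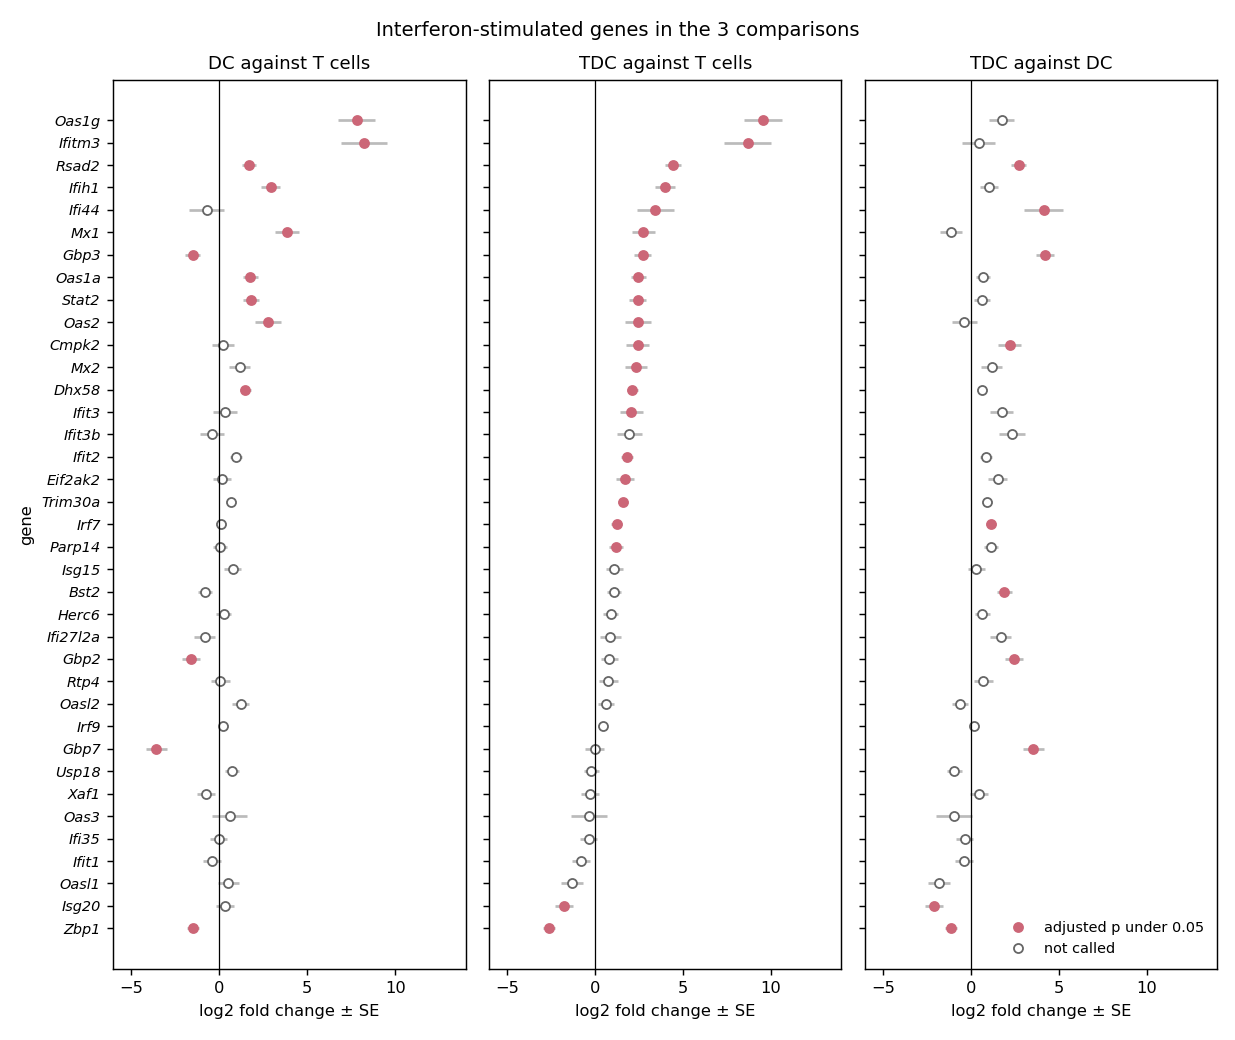
Log2 fold change with its standard error for each of the 37 genes in DC against T, TDC against T and TDC against DC, with filled points for an adjusted p under 0.05. Gbp2, Gbp3 and Gbp7 lie left of 0 in DC against T and right of 0 in TDC against DC.

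Among the transcription factors, Irf7 was the one called higher in TDC than in both controls. Irf7, the amplifier of type I interferon transcription, was 125, 123 and 192 CPM in T, 150, 177 and 144 in DC, and 407, 274 and 348 in TDC. All 3 TDC libraries lay above the other 6, and T and DC overlapped. TDC exceeded T by 1.22 on the log2 scale (SE 0.30, edgeR adjusted p = 0.0101) and DC by 1.12 (SE 0.30, adjusted p = 0.0295), and the difference between DC and T was 0.10 (adjusted p = 0.858). Leaving out DC replicate 1, DC replicate 3, TDC replicate 1 or TDC replicate 3 ended the call against DC (adjusted p 0.0758 to 0.0945), as did library-size scaling (0.0920), upper-quartile factors (0.0628) and no filter on low counts (0.0575). Library-size scaling also ended the call against T (0.133). Stat2, which joins IRF9 in the ISRE-binding complex, was 36.5, 21.1 and 30.2 CPM in T, 99.7, 57.0 and 151 in DC, and 80.1, 228 and 167 in TDC. It was lowest in T without overlap, and DC and TDC overlapped. Its log2 fold changes against T were 1.81 in DC (adjusted p = 0.0178, above 0.05 without T replicate 2, T replicate 3 or DC replicate 3) and 2.44 in TDC (adjusted p = 0.00335). Irf9, the DNA-contacting subunit, was not called in any comparison, with 96.2 to 134 CPM in T, 114 to 140 in DC and 137 to 163 in TDC.

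The sensors of foreign nucleic acid split. Ifih1 encodes MDA5, a receptor for long double-stranded RNA, and was 3.59, 1.43 and 4.74 CPM in T, 27.7, 27.4 and 19.4 in DC, and 26.1, 75.3 and 49.8 in TDC. Every DC and TDC library exceeded every T library. The log2 fold changes against T were 2.93 in DC (SE 0.55, edgeR adjusted p = 0.00311) and 3.95 in TDC (SE 0.57, adjusted p = 0.000523). Dhx58 encodes LGP2, a regulator of MDA5, and was 21.7, 17.1 and 26.2 CPM in T, 71.9, 53.4 and 57.2 in DC, and 76.3, 106 and 99.5 in TDC. The 3 populations did not overlap and were ordered T, DC, TDC. It was higher than in T by 1.49 in DC (SE 0.31, adjusted p = 0.00548) and 2.12 in TDC (SE 0.32, adjusted p = 0.000591), and the 0.63 between TDC and DC was not called (adjusted p = 0.209). Eif2ak2, which encodes the double-stranded RNA-activated kinase PKR, was 4.49 to 15.5 CPM in T, 7.69 to 13.7 in DC and 20.5 to 39.3 in TDC. It was called higher in TDC than in T (log2 1.70, SE 0.53, adjusted p = 0.0310), a call lost without T replicate 1, T replicate 2, TDC replicate 2 or TDC replicate 3 (0.0856 to 0.127).

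Zbp1 ran in the opposite order to the other sensors. Zbp1 senses Z-form nucleic acid and starts necroptosis, and was 93.8, 113 and 116 CPM in T, 30.8, 37.4 and 48.2 in DC, and 12.0, 18.8 and 22.2 in TDC. None of the 3 ranges overlapped, with T highest and TDC lowest. It fell by 1.47 on the log2 scale from T to DC (SE 0.33, edgeR adjusted p = 0.00882) and by 2.60 from T to TDC (SE 0.35, adjusted p = 0.000297). The further difference of -1.13 between TDC and DC was at an adjusted p of 0.0463 and passed 0.05 in none of the fits that left out 1 of the 9 libraries (0.0639 to 0.126).

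The oligoadenylate synthetase family, whose products activate RNase L, was called higher than in T in 3 of its 6 members in DC (50%, against 15.4% of all genes). The same 3 were called higher in TDC than in T (50%, against 21.8%). None was called between TDC and DC (0 of 6 by edgeR, 2 at an unadjusted p under 0.05 or by DESeq2, 1 in each direction). Oas1a was 15.3, 24.9 and 12.9 CPM in T, 55.1, 87.2 and 39.9 in DC, and 131, 82.0 and 79.8 in TDC. T was lowest without overlap, and the ranges of DC and TDC met. The log2 fold changes against T were 1.78 in DC (SE 0.41, edgeR adjusted p = 0.00995) and 2.46 in TDC (SE 0.42, adjusted p = 0.00148). Oas1g was nearly confined to the other 2 populations: 1 read in T replicate 1 was the only one in T, where DC held 307 and TDC 828. Per library it was 3.18, 10.2 and 4.65 CPM in DC and 26.5, 18.4 and 15.1 in TDC. From these pooled counts the ratio to T was 289 in DC (95% counting interval 51.9 to 11411) and 1050 in TDC (188 to 41464), intervals that cover counting error only. Both differences from T were called (adjusted p = 0.000395 and 0.000112), and the log2 difference of 1.74 between TDC and DC was not (adjusted p = 0.127) although the ranges were apart. Oas1a and Oas1g are close copies, and reads may be divided between them by the counting.

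The rest of the family was less uniform. Oas2 was 1.88 to 15.5 CPM in T, 28.6 to 97.1 in DC and 24.7 to 63.3 in TDC, and both calls against T were lost without T replicate 3 (adjusted p = 0.0598 in DC). The call in TDC was also lost without T replicate 2, TDC replicate 2 or TDC replicate 3 (0.0507 to 0.0862 over the 4 libraries). Oas3 stayed at or below 9.48 CPM in every library. Oasl1, a family member without synthetase activity, ran the other way, with 6.12 to 15.8 CPM in T, 10.7 to 22.8 in DC and 1.88 to 7.08 in TDC. Its TDC libraries lay below all DC libraries, and the log2 difference of -1.83 had an edgeR adjusted p of 0.0798. Oasl2 was 9.01 to 19.1 CPM in T, 15.7 to 41.5 in DC and 20.5 to 22.5 in TDC and was not called.

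Among the IFIT genes, whose proteins bind viral RNA, 2 of 4 were higher in TDC than in T (50%, against 21.8% of all genes). None was called between DC and T (0 by edgeR, 1 at an unadjusted p under 0.05 and 1 by DESeq2). Ifit3 was 10.6, 17.6 and 23.3 CPM in T, 22.2, 39.3 and 3.64 in DC, and 80.4, 74.9 and 61.0 in TDC. TDC lay above the other 6 libraries, while the DC libraries spread across the T range. TDC exceeded T by 2.07 on the log2 scale (SE 0.68, edgeR adjusted p = 0.0384), a call that ended without any of 7 libraries (all but DC replicate 2 and DC replicate 3, 0.0543 to 0.124), and exceeded DC by 1.73 (adjusted p = 0.118). Ifit2 was 11.5 to 19.6 CPM in T, 27.6 to 39.0 in DC and 43.4 to 66.1 in TDC, with no overlap among the 3 and a call in TDC against T (log2 1.83, SE 0.36, adjusted p = 0.00300). Ifit3b, a near-identical neighbour of Ifit3 with which it may share reads, was 1.27 to 8.60 CPM in T, 2.92 to 7.38 in DC and 17.4 to 30.9 in TDC, and missed the threshold against both (adjusted p = 0.0590 and 0.0574). Ifit1 had no such pattern: 21.1 to 63.9 CPM in T, 18.9 to 56.3 in DC and 17.8 to 28.4 in TDC.

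The 3 guanylate-binding protein genes among the 37, GTPases that attack the vacuoles of intracellular pathogens, were called lower in DC than in T, the calls of Gbp2 and Gbp3 less firmly than that of Gbp7. Gbp3 was 23.6, 26.7 and 40.4 CPM in T, 17.5, 9.27 and 4.95 in DC, and 150, 207 and 230 in TDC. No 2 populations overlapped, with DC lowest and TDC highest. TDC exceeded T by 2.70 on the log2 scale (SE 0.47, edgeR adjusted p = 0.00163) and DC by 4.21 (SE 0.50, adjusted p = 0.000679). DC was below T by a log2 fold change of -1.51 (SE 0.45, adjusted p = 0.0340), which did not pass without any of 7 libraries (all but DC replicate 1 and TDC replicate 1, 0.0525 to 0.125).

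Gbp7 had a different shape, with T and TDC overlapping. It was 91.6, 57.3 and 135 CPM in T, 13.9, 3.34 and 6.56 in DC, and 46.8, 104 and 130 in TDC. T and TDC overlapped and all DC libraries lay below both. DC was below T by -3.56 (SE 0.61, edgeR adjusted p = 0.00188), TDC was above DC by 3.55 (SE 0.61, adjusted p = 0.00400), and TDC minus T was -0.02 (SE 0.55, adjusted p = 0.987) on the log2 scale. Gbp2 was 84.1, 104 and 106 CPM in T, 25.4, 11.9 and 58.9 in DC, and 132, 199 and 186 in TDC. The ranges were apart in the order DC, T, TDC. It was higher in TDC than in DC by 2.43 (SE 0.51, adjusted p = 0.0106), 0.82 above T without a call (adjusted p = 0.229), and -1.61 in DC against T (SE 0.50, adjusted p = 0.0389), a call lost without any library but DC replicate 3 (0.0569 to 0.130). Gbp2, Gbp3 and Gbp7 are neighbours on chromosome 3 and similar in sequence, so their counts may not be fully separate.

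The Mx dynamin-like GTPases, which block viral replication, did not show the dip in DC. Mx1 was 1.20, 3.70 and 10.0 CPM in T, 67.4, 51.9 and 97.7 in DC, and 21.6, 37.3 and 41.4 in TDC. The order was T, TDC, DC without overlap. It was higher than in T by 3.85 in DC (SE 0.69, edgeR adjusted p = 0.00249) and by 2.74 in TDC (SE 0.66, adjusted p = 0.00973), and TDC minus DC was -1.11 (adjusted p = 0.279). Mx2 was 1.43 to 5.67 CPM in T, 5.64 to 7.96 in DC and 12.6 to 19.8 in TDC, and was called higher in TDC than in T (log2 2.33, SE 0.62, adjusted p = 0.0153), a call lost without T replicate 1 or T replicate 2 (0.0551 to 0.0575).

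**Figure D4:**
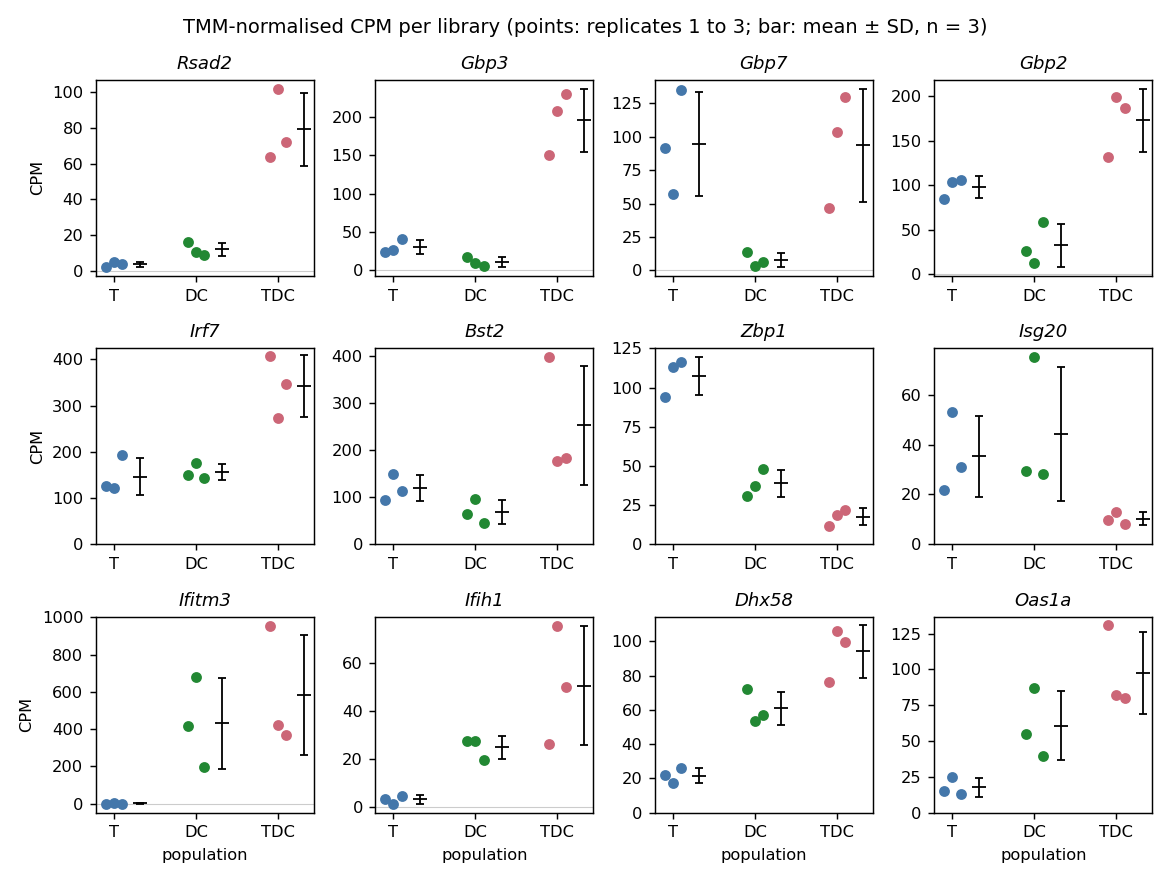
TMM-normalised CPM of named genes in each library of T, DC and TDC (points), with the mean and SD over n = 3 pools. Gbp7 is low in DC alone, Zbp1 descends from T to TDC, and Rsad2 and Gbp3 have their TDC points above all others.

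The membrane proteins included a gene nearly absent from T and a gene that separated TDC from DC. Ifitm3, which stops enveloped viruses from fusing in endosomes, was 0.492, 3.70 and 0 CPM in T, 415, 680 and 196 in DC, and 956, 424 and 370 in TDC. T was near 0 and the other 2 populations overlapped. The log2 fold changes against T were 8.23 in DC (SE 1.30, edgeR adjusted p = 0.00113) and 8.67 in TDC (SE 1.32, adjusted p = 0.000731). Most of the few reads in T came from T replicate 2, and without it these values were 10.87 and 11.31. Bst2 encodes tetherin, which holds budding virions at the surface and is also the mouse plasmacytoid DC antigen PDCA-1. It was 95.1, 150 and 114 CPM in T, 63.5, 95.7 and 45.4 in DC, and 398, 177 and 183 in TDC. TDC was above the other 6 libraries, with 1 library (TDC replicate 1) well above the other two. It was higher in TDC than in DC by 1.89 on the log2 scale (SE 0.42, adjusted p = 0.0138, 0.0540 without DC replicate 1), and 1.08 above T without a call (adjusted p = 0.0685).

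The plasmacytoid DC gene Siglech had no reads in T, 15.4, 12.1 and 13.2 CPM in DC, and 7.72, 12.99 and 30.6 in TDC. TDC and DC overlapped for Siglech although they did not for Bst2 or Irf7. Ifi27l2a, an inner mitochondrial membrane protein family member, was 161, 331 and 220 CPM in T, 91.7, 263 and 51.8 in DC, and 714, 282 and 308 in TDC. TDC did not overlap DC but did overlap T, and no comparison was called (TDC against DC, log2 1.68, edgeR adjusted p = 0.0948).

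Of the other effectors, Rsad2 was higher in DC than in T and higher in TDC than in either. It encodes viperin, a radical SAM enzyme that makes a chain-terminating nucleotide, and was 2.18, 4.84 and 3.97 CPM in T, 16.0, 10.8 and 9.18 in DC, and 63.6, 102 and 71.9 in TDC. The ranges rose from T to DC to TDC without overlap. The mean was 3.66 ± 1.36 CPM in T, 12.0 ± 3.58 in DC and 79.2 ± 20.2 in TDC (SD, n = 3). TDC exceeded T by 4.43 on the log2 scale (SE 0.46, edgeR adjusted p = 6.21e-05) and DC by 2.72 (SE 0.42, adjusted p = 0.00231). DC exceeded T by 1.71 (SE 0.41, adjusted p = 0.0122, 0.0511 without DC replicate 1). Cmpk2, the neighbour of Rsad2 that supplies its nucleotide substrate, was 3.45 to 12.8 CPM in T, 2.86 to 14.7 in DC and 36.3 to 58.7 in TDC. It shared the TDC peak but not the step from T to DC (log2 0.21, adjusted p = 0.856). Its calls were log2 2.42 against T (adjusted p = 0.0168) and 2.21 against DC (adjusted p = 0.0470). The latter was lost without any of 7 libraries (all but T replicate 3 and DC replicate 3, 0.0505 to 0.178), and the former without T replicate 1, T replicate 3 or TDC replicate 2 (0.0538 to 0.0674).

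Ifi44 and Isg20 moved in opposite directions. Ifi44, a cytoplasmic protein of the response, was 2.18, 2.02 and 3.45 CPM in T, 3.41, 1.25 and 0 in DC, and 25.04, 28.8 and 28.8 in TDC. TDC stood clear of the rest and T and DC overlapped. Its log2 fold changes in TDC were 3.43 against T (SE 1.07, edgeR adjusted p = 0.0308) and 4.12 against DC (SE 1.10, adjusted p = 0.0312). Both calls were lost without any 1 TDC library, the first also without any T library (0.0505 to 0.0971) and the second without DC replicate 2 (0.0599 to 0.0894 with the TDC libraries). Isg20, an exonuclease that degrades single-stranded RNA, was 21.6, 53.1 and 30.9 CPM in T, 29.4, 75.2 and 28.1 in DC, and 9.60, 13.2 and 8.12 in TDC. All 3 TDC libraries lay below the other 6. It fell by 1.77 against T (SE 0.51, adjusted p = 0.0216) and by 2.10 against DC (SE 0.51, adjusted p = 0.0213). The calls ended without TDC replicate 1, TDC replicate 3 or, respectively, T replicate 2 (0.0539 to 0.0933) and DC replicate 2 (0.0580 to 0.0741).

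Trim30a, a ubiquitin ligase family protein, was 81.7, 70.4 and 71.9 CPM in T, 165, 88.0 and 108 in DC, and 232, 224 and 219 in TDC. The 3 ranges did not overlap, and the TDC libraries lay close together. It was called in TDC against T (log2 1.59, SE 0.30, edgeR adjusted p = 0.00249) and missed the threshold against DC (0.90, adjusted p = 0.0687). Parp14, an ADP-ribosyltransferase, was 28.6 to 36.7 CPM in T, 28.0 to 39.9 in DC and 38.2 to 108 in TDC. Its call in TDC against T (log2 1.17, adjusted p = 0.0440) was lost without any T library, DC replicate 1, TDC replicate 2 or TDC replicate 3 (0.0612 to 0.238), and the log2 fold change was 0.72 without TDC replicate 2. Ifi35, Rtp4 and Xaf1 overlapped between all populations and were not called. Ifi35, for example, was 101, 196 and 143 CPM in T, 97.8, 250 and 86.9 in DC, and 168, 75.7 and 97.5 in TDC.

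The ISG15 pathway was the role group with no call in any comparison (0 of 3 by edgeR and 0 by DESeq2). At an unadjusted p under 0.05 there was 1 in TDC against T and 1 in TDC against DC. Usp18 removes ISG15 from its targets and damps receptor signalling, and was 52.4, 93.5 and 87.4 CPM in T, 115, 195 and 76.3 in DC, and 92.3, 56.4 and 53.1 in TDC. The 3 ranges overlapped. Isg15, the ubiquitin-like modifier itself, was 9.92, 23.3 and 15.7 CPM in T, 20.6, 45.0 and 18.7 in DC, and 48.6, 26.0 and 29.9 in TDC. TDC lay just above T and overlapped DC, with a log2 difference from T of 1.10 (SE 0.49, adjusted p = 0.109). Herc6, the mouse ligase for ISG15, was 17.3 to 24.3 CPM in T, 16.3 to 36.8 in DC and 25.8 to 58.8 in TDC. TDC again lay above T without a call (adjusted p = 0.133).

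Upstream of these genes, most interferon ligand genes had few or no reads. Of 21 ligand genes, 13 had no read in any library. Ifna2 had 19, 18 and 6 reads in TDC and none in T or DC. Its pooled level in TDC, 1.01 CPM, was 18.2-fold a floor of 3 reads over T and 19.3-fold that floor over DC. Ifnb1 had 9, 12 and 0 reads in TDC and none elsewhere, and its pooled level was 8.88-fold and 9.43-fold the same floors. These ratios leave out counting error in TDC and the spread between pools, so they are not bounds. Both genes were under the filter on low counts and were not tested by edgeR. DESeq2 was run without that filter, on all genes with any read, with its threshold set at 0.05 and otherwise default settings. It called Ifna2 higher in TDC than in T (adjusted p = 0.0146) and DC (adjusted p = 0.0231). It gave no adjusted p for Ifnb1, whose unadjusted DESeq2 p was 0.156 against T and 0.151 against DC. Ifna genes are near-identical, so reads may belong to a relative. Ifng was 18.1, 45.9 and 41.7 CPM in T, 0 in all DC libraries, and 2.42, 0.223 and 0.447 in TDC. It was the 1 ligand past the edgeR filter, lower in DC and in TDC than in T and higher in TDC than in DC (edgeR adjusted p = 0.0188).

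Of 6 receptor genes, TDC exceeded T in 5 (83.3%, against 21.8% of all genes) and DC in 2 (Ifnar2 and Il10rb, 33.3%, against 9.55%). DC exceeded T in 3 (50%, against 15.4%). Both counts against T include Ifnlr1, a gene of few reads: none in T, 33, 21 and 12 in DC, and 0, 9 and 12 in TDC. Ifnar1 was called in no comparison. Ifnar2, the high-affinity chain for type I interferon, was 72.7, 83.6 and 76.9 CPM in T, 150, 147 and 100 in DC, and 497, 418 and 345 in TDC. The order T, DC, TDC had no overlap. TDC exceeded T by 2.43 on the log2 scale (SE 0.30, edgeR adjusted p = 0.000163) and DC by 1.66 (SE 0.29, adjusted p = 0.00394). Il10rb, a chain shared by the interferon lambda and IL-10 receptors, was 61.5 ± 9.58 CPM in T, 82.2 ± 26.3 in DC and 390 ± 40.8 in TDC (SD, n = 3), higher in TDC than in T (log2 2.67, adjusted p = 0.000182) and DC (2.25, adjusted p = 0.00157). The gamma receptor chains Ifngr1 and Ifngr2 were higher in both DC and TDC than in T and were not called between them.

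Among the receptor signalling genes, the kinase Jak2 was highest in DC. Jak2, which serves the gamma receptor, was 59.2 ± 10.9 CPM in T, 480 ± 278 in DC and 80.9 ± 47.8 in TDC (SD, n = 3), with DC above T (log2 3.02, adjusted p = 0.00557) and TDC below DC (-2.57, adjusted p = 0.0191). Irf8 was higher in DC and TDC than in T by edgeR, and Irf1 was lower in DC than in T (log2 -1.12, adjusted p = 0.0164). Among 10 tested feedback genes, 2 were higher in TDC than in T (20%, against 21.8% of all genes) and 1 lower (10%, against 11.2%). The higher ones were Ptpn6 (log2 1.00, edgeR adjusted p = 0.0136) and Usp8 (1.71, adjusted p = 0.0302). The lower one was Socs1, an inhibitor of JAK kinases, with 42.5 ± 9.89, 18.4 ± 9.46 and 5.63 ± 2.28 CPM in T, DC and TDC. For Socs1, TDC was below T (log2 -2.91, adjusted p = 0.00210) and below DC (-1.70, adjusted p = 0.0492).

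Of 21 tested genes that sense nucleic acid or relay the signal towards interferon transcription, TDC exceeded T in 11 (52.4%, against 21.8% of all genes) and was below it in 2 (9.52%, against 11.2%). DC exceeded T in 10 (47.6%, against 15.4%) and was below it in 1 (4.76%, against 8.41%). TDC exceeded DC in 5 (23.8%, against 9.55%) and was below it in 0 (edgeR; 2 at an unadjusted p under 0.05, 0 by DESeq2). Tlr7, the endosomal receptor for single-stranded RNA, was 2.88, 2.72 and 3.86 CPM in T, 53.4, 31.4 and 58.5 in DC, and 117, 286 and 188 in TDC. The ranges rose in that order, and TDC exceeded DC by 2.05 on the log2 scale (SE 0.40, edgeR adjusted p = 0.00720). Unc93b1, which carries Tlr7 to the endosome, was 12.0 ± 4.16 CPM in T, 1234 ± 279.7 in DC and 2216 ± 291.9 in TDC (SD, n = 3), with calls in both against T. Ikbke, a kinase that activates interferon regulatory factors, was 223 ± 59.1 CPM in T, 0.255 ± 0.442 in DC and 23.6 ± 7.91 in TDC, so it was lower in both than in T.

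A lower level in DC than in T was also called in 9 of 16 related GTPases outside the 37 (56.2%, against 8.41% of all genes). DC was above T in 0 (edgeR, also 0 at an unadjusted p under 0.05 and by DESeq2). TDC was above DC in 9 (56.2%, against 9.55%) and below it in 2 (Gbp4 and Tgtp1, 12.5%, against 4.6%). TDC was above T in 4 (25%, against 21.8%) and below it in 5 (31.2%, against 11.2%). Not called lower in DC were 7, among them Gbp5, Gbp8, Gbp9, Irgm1 and Irgm2. Igtp, an immunity-related GTPase, was 220, 315 and 231 CPM in T, 34.2, 34.1 and 21.8 in DC, and 166, 125 and 111 in TDC, and differed between each pair of populations (TDC against DC, log2 2.16, SE 0.32, edgeR adjusted p = 0.00182). Ifi47, from the same family, was 305 ± 105 CPM in T, 30.9 ± 1.44 in DC and 132 ± 41.6 in TDC (SD, n = 3). Gbp6 was 18.0 ± 1.60 CPM in T, had no reads in DC and was 7.08 ± 2.02 in TDC. Gbp4 was 200 ± 41.6 CPM in T, 62.9 ± 8.39 in DC and 21.1 ± 4.03 in TDC, lower in TDC than in DC (log2 -1.58, adjusted p = 0.00597). Several of these genes are near-identical copies and their counts may be mixed.

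A wider list of 73 tested interferon-responsive genes outside the 37 was spread in both directions. In DC against T, 18 were higher (24.7%, against 15.4% of all genes) and 12 lower (16.4%, against 8.41%). In TDC against T, 20 were higher (27.4%, against 21.8%) and 17 lower (23.3%, against 11.2%). In TDC against DC, 6 were higher (8.22%, against 9.55%) and 7 lower (9.59%, against 4.6%). Cxcl10, a chemokine for activated T cells, was 2.46, 3.36 and 1.75 CPM in T, 12.2, 30.6 and 22.1 in DC, and 149, 135 and 159 in TDC, and TDC exceeded DC by 2.77 on the log2 scale (SE 0.41, edgeR adjusted p = 0.00176). Cxcl9, its relative, had no reads in T and was 92.8 ± 35.7 CPM in DC and 99.8 ± 40.1 in TDC (SD, n = 3). Tor3a, an ATPase of the endoplasmic reticulum, was 24.1 ± 6.32, 56.0 ± 11.8 and 248 ± 53.3 CPM in T, DC and TDC, with all 3 differences called. In the IFI200 family of DNA-binding proteins, 4 of 11 were higher than in T in each of DC and TDC (36.4%, against 15.4% and 21.8% of all genes). In each, 6 were lower than in T (54.5%, against 8.41% and 11.2%). Ifi207 had no reads in T and was 73.5 ± 22.3 CPM in DC and 288 ± 41.4 in TDC, while Ifi214 was 46.5 ± 12.7 CPM in T, 0.0326 ± 0.0302 in DC and 1.07 ± 0.761 in TDC.

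Variation between libraries of a population followed transcript length. For each library, the deviation of each gene from its population mean was set against its longest annotated transcript (GENCODE M21). Over the 37 genes, Spearman's rho was -0.59 in T replicate 2, -0.70 in DC replicate 2 and -0.78 in TDC replicate 1, where short transcripts were relatively high, and between 0.30 and 0.76 in the other 6 libraries. Deviations within a population sum to 0, so a negative slope in 1 library by itself gives positive slopes in the others. Over the 14316 genes with a length, rho had the same sign in each library and lay between -0.45 and 0.46. These are descriptions across genes, which share a library and are not independent. The 6 members with transcripts up to 1500 bases had a median deviation of 0.57, 0.88 and 0.70 on the log2 scale in those 3 libraries. Among the genes that ran high in them were Ifi27l2a (331, 263 and 714 CPM) and Bst2 (150, 95.7 and 398), and Stat2 ran low (21.1, 57.0 and 80.1). With those 3 libraries left out together, a choice made after seeing the data, 14 of the 37 were higher in TDC than in T and 6 higher than in DC, with 1 and 0 lower. The genes above both controls were then 2 and those below both 0. The part of transcript length in the differences between populations was not tested.

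**Figure D5:**
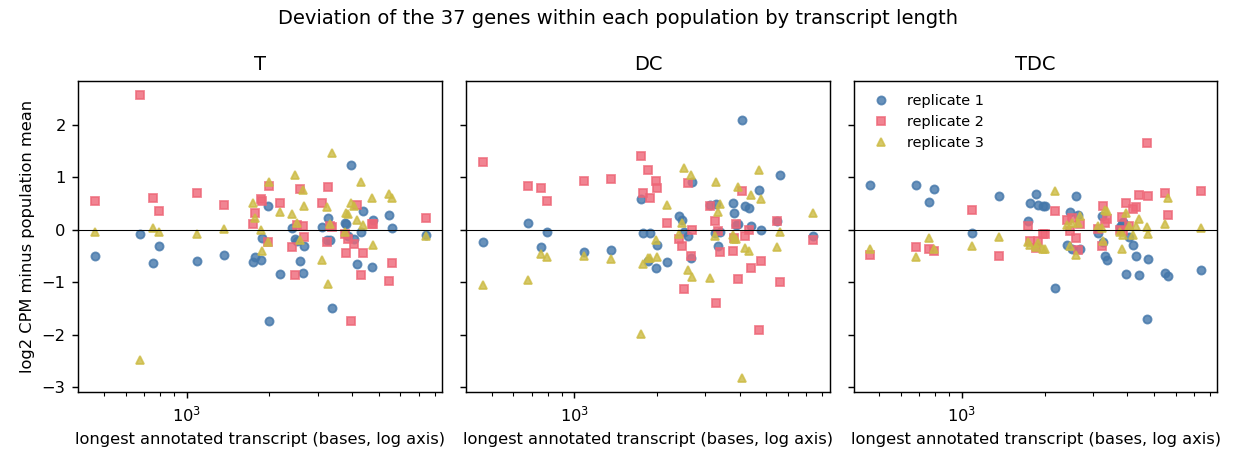
Deviation of the 37 genes from their population mean (log2 CPM) against the longest annotated transcript (bases, log axis), by replicate, in T, DC and TDC. T replicate 2, DC replicate 2 and TDC replicate 1 slope downwards and the other 6 libraries upwards.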

How the data were processed

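The authors deposited 1 table of raw read counts per gene for the 9 libraries. Per the submitters' processing notes it was made with FastQC, MultiQC, Trimmomatic, STAR and featureCounts. The build in those notes is hg38, a human one, while samples and gene symbols are mouse. The strand setting and annotation were not given in the sources used here. Without the strand setting, overlapping or antisense genes may share counts.

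Genes were filtered with filterByExpr (minimum count 10, minimum total 15), scaled by TMM and fitted with edgeR 4.0.16 (robust quasi-likelihood, 3 groups in 1 fit, R 4.3.3, limma 3.58.1) and adjusted by Benjamini-Hochberg. SE is the log2 fold change over the square root of F. CPM are TMM-normalised. DESeq2 1.42.0 was an alternative. The code was tested on simulated counts. Pools are the replicates, and p-values measure the spread between pools only. Same-numbered libraries deviated with correlations from -0.38 to 0.22. With 3 libraries a population, and deviations that also followed transcript length, these values cannot decide whether the numbers pair the pools. The labels give same-numbered libraries a shared prefix, without saying what it marks, and the same number of pooled mice. Numbers were not treated as pairs in the main fit, and the replicate block was run as an alternative. No 2 libraries of a population agreed within sampling noise.

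The members and all lists were chosen with earlier results of these data known. Per-library values are given for the 6 called members with the smallest adjusted p in each direction and comparison (at least 10 CPM in the higher group), the 3 of highest mean CPM per population and 1 member for any role group otherwise unnamed. Of each pathway list, up to 4 genes by the same measure were eligible, and Phf11b was added as a gene lower in TDC. Per-library values of Stat2, Ifi44, Isg15 and Trim30a, and the values of other members, were added to account for every member. A result of the signalling list is not reported here. Genes were matched by symbol, and 26 date-like symbols in the table were left as they are.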

Additional observations from a re-analysis of the deposited data

How the results depend on the processing

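No called gene changed direction under any of the alternatives run: 3 other scalings, 2 other filters on low counts, DESeq2's Wald test, only the 2 groups compared, the replicate block, and each library left out in turn. Of the 44 calls, 23 stayed past the threshold in every planned and added setting, among them Rsad2, Gbp2, Gbp3 and Gbp7 in TDC against DC. Members higher in TDC than in T were 11 under library-size scaling. Members higher in both TDC comparisons were 2 under library-size scaling, 3 with upper-quartile factors and 9 with DESeq2's Wald test. Members higher in TDC than in DC were 13 with DESeq2's Wald test. Members lower in TDC than in DC, and lower than in both, were each 1 with no filter on low counts and 1 with only the 2 groups compared, where members lower in DC than in T were 2. With the replicate block, higher in TDC than in DC were 5, lower 1, above both 2 and below both 1. The calls lost with it were Ifit3 (adjusted p = 0.0647), Ifi44 (0.0585), Parp14 (0.0811) and Eif2ak2 (0.0613) in TDC against T, which left 15 higher, Gbp3 (0.0730) in DC against T, and Irf7 (0.0744), Ifi44 (0.0586), Cmpk2 (0.111) and Zbp1 (0.0614) in TDC against DC. The correlations between same-numbered libraries could not decide whether the numbers pair the pools. With T replicate 2, DC replicate 2 and TDC replicate 1 left out together, an alternative chosen after seeing the data, above both were 2, lower in TDC than in T 1, lower in TDC than in DC 0 and below both 0. Leaving out each library in turn gave 7 to 10 members higher and 2 to 3 lower in DC than in T, 13 to 20 higher and 1 to 2 lower in TDC than in T, 5 to 8 higher and 0 to 1 lower in TDC than in DC, 2 to 4 above both and 0 to 1 below both. A filter of 10 CPM in 3 libraries tested 36 of the 37 and left these counts as reported. Over all genes, leaving out 1 library gave 1724 to 2492 higher and 870 to 1384 lower in DC than in T (main fit 2269 and 1237). In TDC against T it gave 2501 to 3585 higher and 937 to 1945 lower (main fit 3204 and 1654). In TDC against DC it gave 897 to 1365 higher and 293 to 611 lower (main fit 1404 and 677). The cause of the moves was not tested. With 3 pools a population and a common biological coefficient of variation of 0.588, a difference that missed the threshold is not shown to be absent. At these depths 3 reads in a population correspond to 0.0524 to 0.0706 CPM, so depth limits mainly the ligands, Oas1g and Ifitm3 in T.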
